A study of Mus musculus with 32 samples.

Results

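Lin28a, Lin28b, Trim71, Sall4, Igdcc3, Prtg, Hmga2, Igf2bp1, Igf2bp2 and Igf2bp3 are genes of the Lin28 and let-7 pathway of developmental timing, or are commonly listed among its targets. They were chosen on the measured mutant minus control differences of these arrays, since several of them were already known to be high in the mutants. The genotype differences of these genes are therefore given as a description, and calls on them are counted but not read as a result. Tests of these genes are read only for the jaw and end contrasts of the controls and for interactions. The genes were matched by the gene symbol of the array's annotation. Of the 10 genes listed, 9 had a probe set, of 18193 genes named on the array. Igf2bp2 was not analysed here.

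The study asked how the jaws of the mouse embryo depend on TGF-beta signalling in the neural crest, with 32 expression arrays of total RNA at embryonic day 13.5 (strain label C57B6). The mutants carried Wnt1-Cre and floxed alleles of Alk5, the type I TGF-beta receptor whose gene symbol is Tgfbr1, and were picked by cleft palate and a defect of the skull vault. The controls were their littermates. Wnt1-Cre recombines in neural crest and dorsal neural tube cells, so the receptor is kept in oral epithelium, muscle, endothelium and blood cells of the mutants. Each jaw, mandible or maxilla, was divided into a distal and a proximal end, which with genotype gave 8 groups of 4 arrays numbered 1 to 4. The labels do not say whether arrays of different numbers came from different embryos or pools, and p-values here reflect array-to-array spread only, some of it possibly technical. The tissue was bulk tissue, in which fewer cells of a type and less RNA per cell cannot be told apart.

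LIN28A and LIN28B are RNA-binding proteins that bind the precursors of let-7 microRNAs and block their maturation, and mature let-7 in turn represses the Lin28 transcripts. The pathway was found in the worm as a clock of larval development, and in mammals its early state, with LIN28 high and let-7 low, is known from embryonic stem cells and early embryos. TRIM71, the mammalian LIN-41, is a ubiquitin ligase and RNA-binding protein of early embryos and a classical let-7 target. SALL4 is a zinc finger transcription factor of pluripotent cells and limb buds, IGDCC3 and PRTG are immunoglobulin superfamily receptors of the early embryo, HMGA2 is a chromatin protein of growing tissues, and the IGF2BP proteins bind and stabilise transcripts in fetal tissue.

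Mature let-7 microRNAs were not measured on these arrays. Their sequences are printed because all genes described here are linked by them, through the seed, bases 2 to 8, which pairs with target transcripts. The sequences are those of RefSeq (build GRCm38.p6), written 5′ to 3′ with the seed in capitals. Of 11 mature family members in that table, 10 share the seed GAGGUAG, including let-7d, which starts with A, and miR-98. The member let-7j has the seed GAGGUAU, with another last base.
let-7a-5p: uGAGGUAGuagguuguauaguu
let-7d-5p: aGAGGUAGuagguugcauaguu
let-7g-5p: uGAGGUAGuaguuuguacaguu
let-7i-5p: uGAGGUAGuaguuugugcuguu
miR-98-5p: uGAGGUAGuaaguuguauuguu
let-7j: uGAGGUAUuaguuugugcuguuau
Against let-7a-5p, let-7d-5p and let-7g-5p each differ at 2 bases, let-7i-5p at 4 and miR-98-5p at 2, all outside the seed.

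LIN28 recognises the loop of let-7 precursors in part through the letters GGAG, so the hairpin of let-7g, which holds them, and that of let-7b, which does not, are shown with GGAG between the arms in capitals. The let-7g hairpin lies at chr9:106178840-106178927 on the plus strand and the let-7b hairpin at chr15:85707319-85707403 on the plus strand.
Mirlet7g: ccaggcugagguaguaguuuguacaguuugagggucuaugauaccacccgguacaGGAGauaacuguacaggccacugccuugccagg
Mirlet7b: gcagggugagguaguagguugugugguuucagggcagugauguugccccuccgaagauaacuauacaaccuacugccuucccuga
Of 11 let-7 family hairpins with both mature arms in the table, 8 (72.7%) held GGAG between the arms, read on the transcript strand, against 52 of 644 hairpins of all microRNAs (8.07%). A match is a description of the letters and not a measured binding site.

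Expression is the deposited log2 value, in which 1 unit is a 2-fold change. Of 45101 probe sets, 29356 lay above their array's 40th percentile (6.66 to 6.86 on the log2 scale) on at least 4 arrays, and the brightest of each gene stood for it, which gave 13705 genes. Of the 9 listed genes on the array 8 passed, and Lin28b did not. Arrays of 1 group correlated at 0.926 to 0.997, and no array pair was identical. The 8 arrays of control number 2 and mutant number 1 had Xist at 13.34 to 14.06 with Y-linked genes at 3.65 to 4.29, and 22 arrays had Xist at 6.38 to 6.96 with Y-linked genes at 9.89 to 10.28. Both maxilla arrays of control number 3 had Xist at 9.69 and 10.72 beside Y-linked genes at 9.97 and 10.05. The array of control distal mandible number 3 had a Gapdh 3′ minus 5′ signal of 2.23 against -0.18 to 0.12 on the others, and that of mutant distal maxilla number 1 had an SD of 2.37 over all probe sets against 2.50 to 2.56. The spiked-in Cre control read 13.68 to 13.97 on the 8 arrays of number 1 and 12.42 to 13.23 on the other 24. The targeted gene, Tgfbr1, was not lower in the mutants, with differences of 0.28 ± 0.07 (SE) in distal mandible and 0.41 ± 0.07 in distal maxilla. It was not determined whether its probes fall inside the deleted exon, so this value checks nothing about the labels. All 9 listed genes of jaw mesenchyme, among them Hand2 and Barx1, passed the filter on low signal.

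In the maxilla, the 4 arrays of number 2 of the controls and number 4 of the mutants went against their end labels. Over the 13705 genes, the distal minus proximal difference within 1 jaw, genotype and number was compared between all 16 such pairs of arrays. The control number 2 and mutant number 4 maxilla pairs correlated with each other at 0.76, and with the 14 other pairs at -0.83 to -0.06, while the 14 others correlated with each other at -0.02 to 0.79. Results that rest on maxilla arrays are therefore given with these 4 arrays and without them, a choice made after the data were seen.

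Lin28a was close to background in control jaws and higher on most mutant arrays. Its tested probe set (1437752_at) read 4.93, 5.21, 5.15 and 4.8 in control distal mandible for numbers 1 to 4, and 4.65, 5.2, 5.54 and 4.82 in control proximal mandible. The control maxilla read 4.78, 5.19, 5.31 and 5.08 distally and 4.5, 5.09, 5.43 and 5.48 proximally. All 16 control values thus lay below the 40th percentile of their array, where differences are compressed and no gene is clearly detected.

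In the mutants the regions differed. Lin28a read 5.09, 5.18, 5.51 and 5.40 in mutant distal mandible, which overlaps the controls. It read 6.97, 6.69, 7.64 and 6.89 in mutant proximal mandible, 6.19, 7.49, 6.45 and 7.04 in distal maxilla, and 6.61, 6.94, 6.13 and 6.10 in proximal maxilla. Those 12 arrays all lay above the highest control value of 5.54, and 6 of them lay above the 40th percentile of their array. By a second measure of background, the 95th percentile of 80 probe sets of sensory receptors, the number was also 6. The mutant minus control difference was 0.27 ± 0.26 (SE) in distal mandible, 1.99 ± 0.26 in proximal mandible, 1.71 ± 0.26 in distal maxilla and 1.32 ± 0.26 in proximal maxilla. Without the 4 maxilla arrays it was 1.66 distally and 1.42 proximally in the maxilla. The sizes are approximate, since the control side is at background.

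The second probe set of Lin28a did not show this difference. It lay at 4.67 to 5.76 over all 32 arrays, never above the 40th percentile, with a mutant minus control difference of 0.07. The single probe set of the paralog Lin28b lay at 3.64 to 4.31 on all arrays, also never above that level, so Lin28b was not detected in either genotype and was not tested. The rise of Lin28a therefore rests on 1 of its 2 probe sets.

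**Figure D1:**
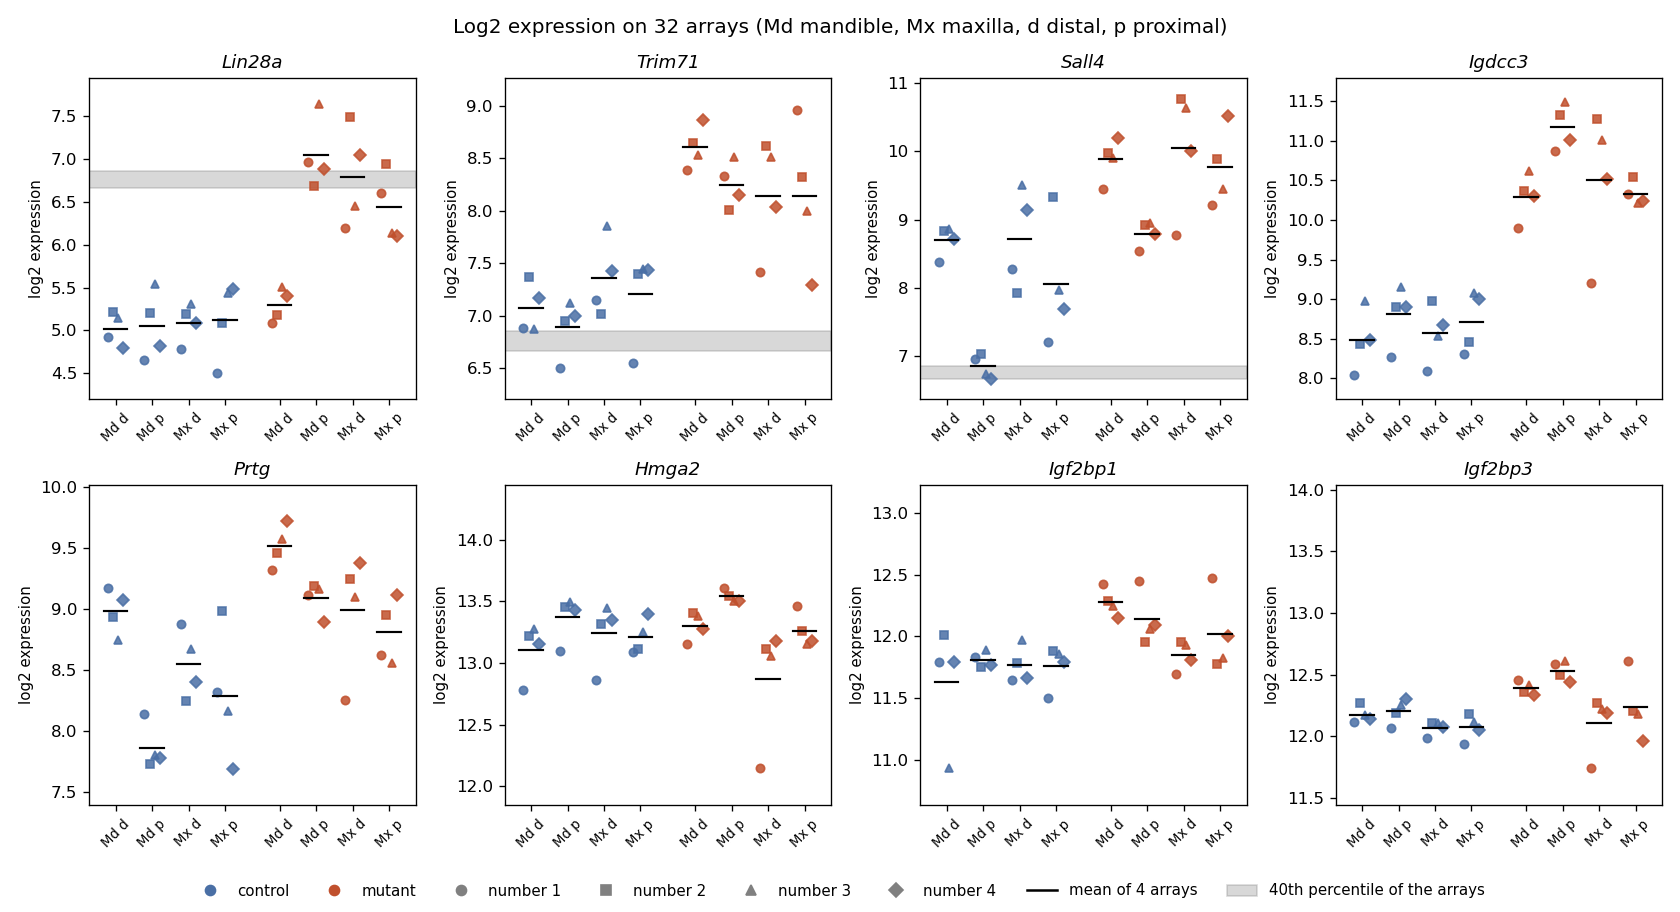
Log2 expression of the 8 tested genes on all 32 arrays, with controls in blue and mutants in orange, 1 marker shape for each number, black bars for the mean of 4 arrays and a grey band for the range of the arrays' 40th percentiles where it falls in the panel. Igdcc3 is the gene whose 16 mutant values (9.21 and above) all lie above its 16 control values (9.16 and below), and Lin28a in mutant distal mandible stays with the controls.

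The genes whose pattern over the 32 arrays was most like that of Lin28a were Ms4a7 (r = 0.89), C3ar1 (0.86), which encodes a complement receptor of myeloid cells, and C1qa (0.85), a complement component made by macrophages. These correlations describe 32 arrays that share 8 group means. Within the 16 mutant arrays r was 0.90, 0.92 and 0.88, and within the 16 control arrays it was 0.01, -0.17 and 0.30. The mutant values include the differences between the regions. After the group means were taken out, r was 0.36, 0.29 and 0.49. Of the 8 listed macrophage genes, 4 were higher in the mutants on the mean of the 4 regions (limma), against 0.503% of all genes. They were C1qa, C1qc, Fcgr3 and Adgre1, by 0.62 to 0.80 (limma adjusted p of C1qa 0.0265), and 4 did not pass. Mrc1 of this list had means of 8.80 in control and 7.89 in mutant distal mandible. Its means in the other regions were 8.58 to 9.11 in control and 8.65 to 9.18 in mutant. The summed level of the 8 macrophage genes was 11.21 to 11.43 in mutant distal mandible, where Lin28a was low, and 12.58 to 12.76 in mutant proximal mandible, where it was high. In the mutant maxilla it was 11.78 to 13.24 distally and 12.23 to 13.26 proximally, and in the 4 control groups it was 11.19 to 12.50. The part of macrophage number or RNA in the Lin28a values was not tested.

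**Figure D2:**
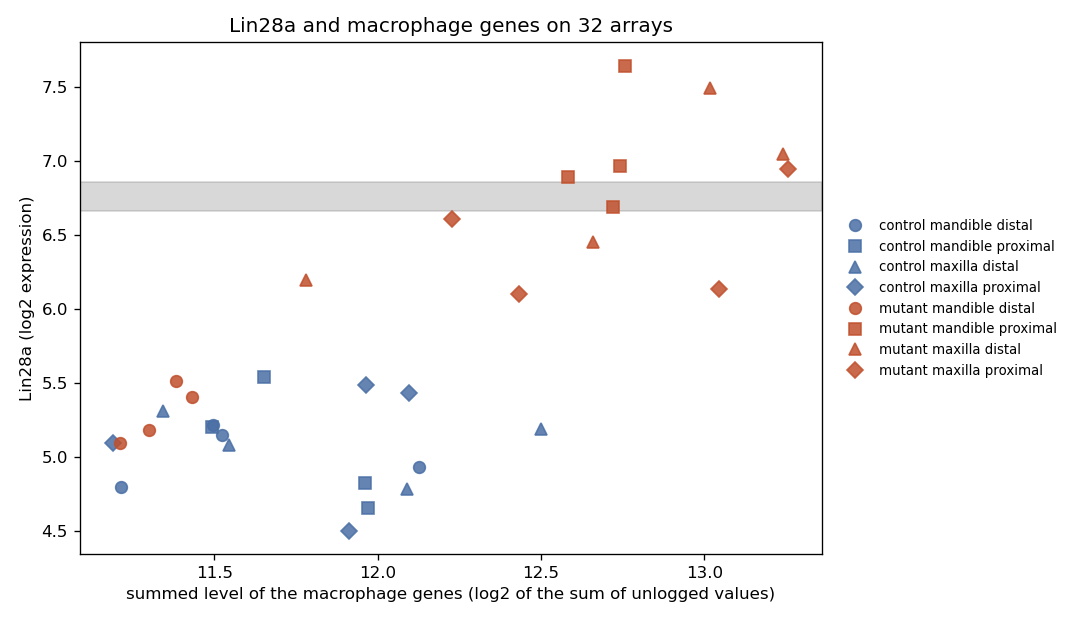
Lin28a (vertical axis, log2 expression) against the summed level of 8 macrophage genes (horizontal axis, log2 of the sum of unlogged values), 1 point per array, with the grey band at the range of the arrays' 40th percentiles. The 4 mutant distal mandible arrays lie with the controls on both axes. The correlation is 0.85 within the 16 mutant arrays, differences between regions included, and -0.11 within the 16 control arrays.

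Trim71 was higher in the mutants in every region. Its tested probe set (1453599_at) read 6.89, 7.37, 6.87 and 7.16 in control distal mandible and 8.39, 8.65, 8.53 and 8.87 in mutant. The proximal mandible read 6.51, 6.95, 7.12 and 7.0 in control and 8.33, 8.01, 8.51 and 8.15 in mutant. In neither end of the mandible did the genotypes overlap. Overlap of the genotypes within a region was not counted over all genes for any of the 8 genes, and is given as description.

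In the maxilla Trim71 spread more widely. Control values were 7.15, 7.02, 7.86 and 7.43 distally and 6.55, 7.40, 7.44 and 7.44 proximally, and mutant values were 7.42, 8.61, 8.51 and 8.03 distally and 8.96, 8.32, 8.0 and 7.30 proximally. The genotypes overlapped at both ends of the maxilla, through mutant distal number 1 and mutant proximal number 4. The differences were 1.54 ± 0.28 (SE) in distal mandible, 1.35 ± 0.28 in proximal mandible, 0.78 ± 0.28 in distal maxilla and 0.94 ± 0.28 in proximal maxilla. Without the 4 maxilla arrays the maxilla gave 0.70 and 1.28. The second probe set (1456673_at) read at most 7.32 on the 16 control arrays and at least 7.34 on the 16 mutant arrays, with a difference of 0.96.

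Sall4 was higher in the mutants and also differed between ends. Its tested probe set (1424152_at) read 8.38, 8.83, 8.87 and 8.73 in control distal mandible, against 9.45, 9.98, 9.91 and 10.20 in mutant. The proximal mandible read 6.96, 7.03, 6.75 and 6.68 in control, near the array's 40th percentile, and 8.54, 8.92, 8.95 and 8.79 in mutant. The mutant proximal mandible thus reached the level of the control distal mandible.

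The maxilla values of Sall4 carry the label problem described above. Control values were 8.28, 7.92, 9.51 and 9.15 distally and 7.21, 9.34, 7.98 and 7.69 proximally, and mutant values were 8.78, 10.77, 10.64 and 10.01 distally and 9.21, 9.89, 9.45 and 10.52 proximally. The genotypes overlapped at both ends of the maxilla and at neither end of the mandible. The differences between genotypes were 1.18 ± 0.40 (SE) in distal mandible, 1.95 ± 0.40 in proximal mandible, 1.33 ± 0.40 in distal maxilla and 1.72 ± 0.40 in proximal maxilla. Without the 4 maxilla arrays they were 1.08 and 1.89 in the maxilla. The second probe set (1424153_s_at) gave a mean difference of 1.23, against 1.54 ± 0.22 for the tested one, and it may be shared with other transcripts.

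Igdcc3 had the largest mean difference between genotypes of the 8 genes. Its probe set 1439498_at read 8.04, 8.44, 8.97 and 8.48 in control distal mandible and 9.90, 10.37, 10.62 and 10.31 in mutant. It read 8.27, 8.90, 9.16 and 8.90 in control proximal mandible and 10.87, 11.33, 11.49 and 11.01 in mutant. The proximal mandible of the mutant was the highest of the 8 groups, although its range overlapped that of the mutant distal maxilla.

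The maxilla gave 8.10, 8.98, 8.54 and 8.68 in control and 9.21, 11.28, 11.01 and 10.52 in mutant at the distal end. It gave 8.31, 8.45, 9.07 and 9.0 in control and 10.33, 10.54, 10.22 and 10.24 in mutant at the proximal end. The lowest mutant value, 9.21, came from distal maxilla number 1, the array of low SD. The differences were 1.81 ± 0.30 (SE) in distal mandible, 2.36 ± 0.30 in proximal mandible, 1.93 ± 0.30 in distal maxilla and 1.62 ± 0.30 in proximal maxilla. Without the 4 maxilla arrays they were 2.06 and 1.57 in the maxilla. All 16 mutant values lay above all 16 control values, which held for 4 of 13705 genes (0.0292%): Igdcc3, Arhgap45, Nfya and Snapc3. Since genotype chose the gene, nothing is read from that share. A second probe set (1423496_a_at) also separated all 16 from all 16, with a difference of 1.38, and the third was at background (5.56 to 6.69).

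Igdcc3, Trim71 and Prtg lie on chromosome 9, at different places. The 250 bases before the start of Igdcc3 and of Lin28a, the pair of members that correlated most closely over the 32 arrays (r = 0.86), are shown from RefSeq (GRCm38.p6), 5′ to 3′ on the gene's strand. They lie at chr9:65140904-65141153 on the plus strand and chr4:134018817-134019066 on the minus strand. Capitals mark CAGAC or its reverse complement GTCTG, the short box bound by SMAD proteins downstream of TGF-beta receptors.
Igdcc3: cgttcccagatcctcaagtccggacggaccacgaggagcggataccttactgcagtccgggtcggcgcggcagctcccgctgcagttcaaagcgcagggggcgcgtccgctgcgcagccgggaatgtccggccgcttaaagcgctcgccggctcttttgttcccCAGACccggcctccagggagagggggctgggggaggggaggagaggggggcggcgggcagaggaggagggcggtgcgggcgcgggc
Lin28a: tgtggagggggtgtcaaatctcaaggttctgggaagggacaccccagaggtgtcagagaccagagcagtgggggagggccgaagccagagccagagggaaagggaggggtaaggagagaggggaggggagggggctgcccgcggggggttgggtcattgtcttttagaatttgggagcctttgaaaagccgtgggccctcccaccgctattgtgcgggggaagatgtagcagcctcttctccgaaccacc
CAGAC on either strand was found in 13861 of 32841 promoter windows of this length (42.2%) and in 1 of 8 of the listed genes in the table, Igdcc3. The longer palindrome GTCTAGAC was found in 0.167% of all windows and in 0 of these 8. In composition the Igdcc3 window was 72.0% G and C with 28 CG pairs and the Lin28a window 61.2% with 7, against medians of 52.4% and 6 over all windows.

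Prtg, which encodes protogenin, a receptor related to Igdcc3, followed Sall4 more than Igdcc3 (r = 0.80 and 0.52 over 32 arrays). Its tested probe set (1456329_at) read 9.17, 8.93, 8.74 and 9.08 in control distal mandible and 9.32, 9.46, 9.57 and 9.72 in mutant. It read 8.14, 7.73, 7.80 and 7.78 in control proximal mandible and 9.11, 9.19, 9.16 and 8.89 in mutant. The genotypes did not overlap at either end of the mandible.

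In the maxilla Prtg read 8.88, 8.24, 8.67 and 8.40 in control and 8.25, 9.25, 9.10 and 9.38 in mutant distally, and 8.32, 8.99, 8.16 and 7.69 in control and 8.62, 8.95, 8.55 and 9.11 in mutant proximally. The maxilla groups overlapped at both ends. The differences were 0.54 ± 0.22 (SE) in distal mandible, 1.23 ± 0.22 in proximal mandible, 0.45 ± 0.22 in distal maxilla and 0.52 ± 0.22 in proximal maxilla, and without the 4 maxilla arrays 0.22 and 0.65 in the maxilla. The second probe set (1438410_at) gave a mean difference of 0.60 and the third lay below the 40th percentile on all arrays.

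Hmga2, Igf2bp1 and Igf2bp3 read high on every array and differed little between genotypes on the mean of the regions. In the mandible the genotypes did not overlap at either end for Igf2bp1 and Igf2bp3. Igf2bp1 read at most 12.01 in control and at least 12.15 in mutant distal mandible, and Igf2bp3 at most 12.27 and at least 12.33. Hmga2 overlapped distally and not proximally, where it read at most 13.495 in control and at least 13.503 in mutant. Hmga2 (1422851_at), a let-7 target in many tissues, had group means of 13.11 to 13.37 in the controls and 12.87 to 13.54 in the mutants. Its mean difference was 0.01 ± 0.10 (SE, n = 4 per genotype), and its difference of -0.37 ± 0.16 in distal maxilla became -0.13 without mutant array number 1 and -0.45 without the 4 maxilla arrays. The dimmest Hmga2 probe set (1446196_at) lay above all 4 control arrays on all 4 mutant arrays of the distal mandible, from a mean of 7.51 ± 0.72 (SD, n = 4) to 8.60 ± 0.26.

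The other 2 bright Hmga2 probe sets gave mean differences of 0.10 each. Between genotypes 1450780_s_at did not overlap at either end of the mandible, and 1450781_at overlapped at both. Igf2bp1 (1418761_at) had control means of 11.63 to 11.81 and mutant means of 11.85 to 12.28, with a difference of 0.65 ± 0.16 in distal mandible, 0.33 ± 0.16 in proximal mandible, 0.08 ± 0.16 in distal maxilla and 0.26 ± 0.16 in proximal maxilla. The distal mandible value became 0.41 without control number 3, the array with the high Gapdh 3′ signal, which read 10.93 against 11.79 to 12.01 on the other 3. Igf2bp3 (1422610_s_at) had control means of 12.07 to 12.20 and mutant means of 12.11 to 12.53, and a mean difference of 0.19 ± 0.05. All 4 Igf2bp1 and all 6 Igf2bp3 probe sets had mean differences above 0, of 0.21 to 0.63 and 0.14 to 0.40, and the sets of 1 gene may share probes or transcripts.

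On the mean of the 4 regions, the mutant minus control differences were 1.93 ± 0.21 (SE) for Igdcc3, 1.54 ± 0.22 for Sall4, 1.32 ± 0.14 for Lin28a, 1.15 ± 0.13 for Trim71 and 0.68 ± 0.12 for Prtg. Taken by number, these 5 genes were higher in the mutant for all 4 numbers, with Igdcc3 at 1.75 to 2.19, Sall4 at 1.29 to 1.82, Lin28a at 1.08 to 1.5, Trim71 at 0.83 to 1.5 and Prtg at 0.20 to 1.04. The median of the 8 genes was 0.92, beside -2.3e-05 over all 13705 genes. The mean of the 4 regions is not touched by an exchange of ends within 1 jaw and number.

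Counts of called genes are given beside the share of all genes and are not read as a result, since these comparisons chose the genes. Lin28a, in addition, passed the filter through mutant arrays alone. With limma at an adjusted p under 0.05, 5 of 8 were called higher on the mean of the regions against 0.503% of all genes, 3 in distal mandible (0.482%) and 5 in proximal mandible (0.591%). In the maxilla 2 were called distally (0.358%) and 2 proximally (0.0584%), and without the 4 maxilla arrays 2 and 0. Lin28a and Igdcc3 were the 2 in both ends of the maxilla, and Lin28a was not among the 3 in distal mandible, which were Igdcc3, Trim71 and Igf2bp1.

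**Figure D3:**
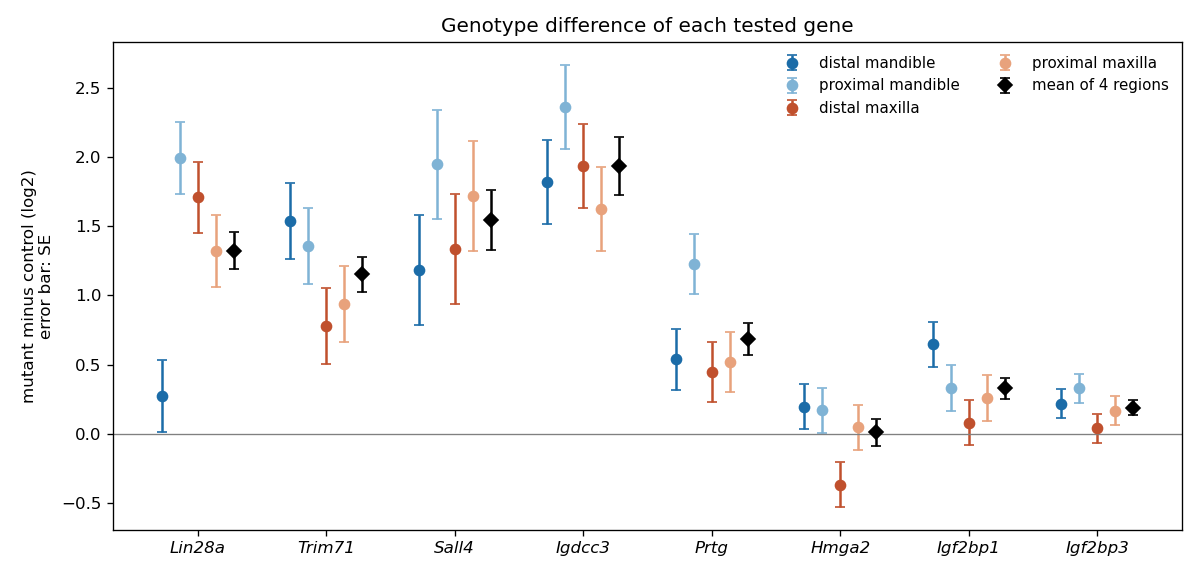
Mutant minus control difference in log2 expression for each tested gene, with a circle for each of 4 regions and a black diamond for the mean of the 4 regions, and bars of 1 SE. Igdcc3 lies at 1.62 to 2.36 in all regions, Lin28a at 0.27 in distal mandible and 1.32 to 1.99 elsewhere, and Hmga2, Igf2bp1 and Igf2bp3 lie nearer 0.

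The differences between the ends and jaws of control tissue took no part in the choice of the genes and were tested. In the control mandible Sall4 and Prtg were higher at the distal end. Sall4 differed by 1.85 ± 0.40 (SE, n = 4 per end, limma adjusted p = 0.00578), from a mean of 6.85 ± 0.17 (SD) proximally to 8.70 ± 0.22 distally, and Prtg by 1.12 ± 0.22 (adjusted p = 0.00254), from 7.86 ± 0.19 to 8.98 ± 0.19. Every distal value lay above every proximal value for both genes, and each of the 4 numbers gave the same sign. How many of all genes were separated in this way was not counted. The calls were 2 of 8 genes against 4.84% of all genes tested.

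The second probe sets gave 1.81 for Sall4 and 1.07 for Prtg. The other 6 genes did not pass, with differences from -0.33 ± 0.30 for Igdcc3 to 0.18 ± 0.28 for Trim71. Lin28a is counted among the 8 in this and the other control contrasts, but it lay below the 40th percentile on all 16 control arrays, so its control contrasts carry no information. Other tissue markers moved with the ends. The epithelial genes Cdh1 and Epcam were higher distally by 0.90 and 0.81 (2 of 8 epithelial genes passed, limma adjusted p 0.01 and 0.0136, summed level 14.31 to 15.02 distally and 13.50 to 14.14 proximally). The muscle genes Myod1, Acta1 and Chrna1 were lower distally, with differences of -2.27, -2.55 and -1.83 (3 of 8, summed level 11.69 to 13.81 distally and 14.58 to 15.12 proximally). The neuron genes Nefl and Nefm were lower distally, with differences of -3.46 and -3.24 (2 of 8, summed level 11.88 to 12.59 distally and 12.61 to 14.14 proximally). Stmn2 of the same list went the other way, with means of 11.28 distally and 10.45 proximally. The part of tissue make-up in the Sall4 and Prtg values was not tested. In the mutant mandible Sall4 read 9.88 ± 0.32 (SD, n = 4) distally and 8.80 ± 0.19 proximally, and Prtg 9.52 ± 0.17 and 9.09 ± 0.14, in the same order as in the controls.

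In the control maxilla no gene was called between the ends (0% of 13705 genes by limma, with 405 at an unadjusted p under 0.05, none of them one of the 8). Sall4 gave 0.66 ± 0.40 and Prtg 0.26 ± 0.22. By number, Sall4 was higher distally by 1.07, 1.53 and 1.45 for numbers 1, 3 and 4 and lower by -1.42 for number 2. Prtg gave 0.56, 0.51 and 0.71 for those numbers and -0.74 for number 2. Without the 4 maxilla arrays, 184 genes were called (1.34%), 0 of them among the 8 genes, of which 2 had an unadjusted p under 0.05. Sall4 then differed by 1.35 ± 0.36 (limma adjusted p = 0.0638) and Prtg by 0.59 ± 0.20 (adjusted p = 0.176), both in the direction seen in the mandible. The 4 arrays were left out because this same difference ran opposite in them over all genes. The 184 calls and the shared direction are therefore partly set by that choice and are not read as a result. In the mutant maxilla Sall4 gave -0.44, 0.88, 1.18 and -0.51 for numbers 1 to 4 and Prtg -0.37, 0.29, 0.55 and 0.26, so number 1, which holds the array of low SD, was also below 0. Whether the mandible and maxilla differ in this was not tested as a difference.

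**Figure D4:**
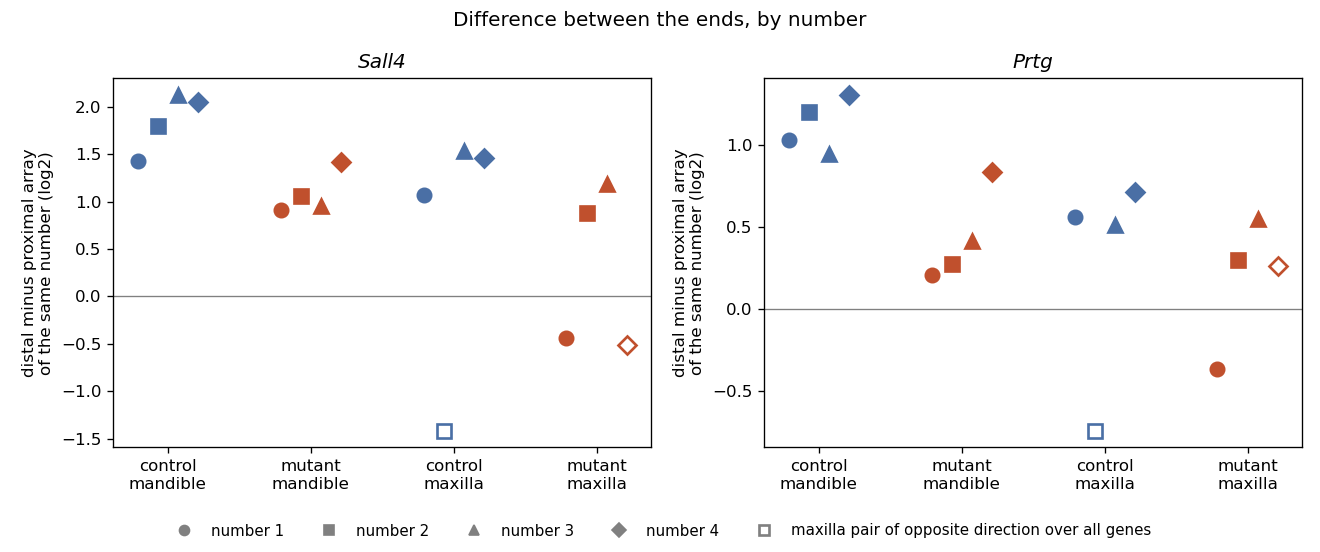
Distal minus proximal log2 difference of Sall4 and Prtg for each number, by genotype and jaw, with open markers for the 2 maxilla pairs whose difference over all genes ran opposite to the others. All 8 mandible pairs lie above 0 for both genes, and the open control marker lies at -1.42 for Sall4 and -0.74 for Prtg while the other 3 control maxilla pairs lie above 0.

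Between the jaws, none of the 8 genes was called in control tissue. At the distal end 1.47% of all genes were called and 0 of 8 (limma, 0 of 8 also at an unadjusted p under 0.05), with differences from -0.29 ± 0.28 for Trim71 to 0.43 ± 0.22 for Prtg. At the proximal end 5.40% of all genes were called and 0 of 8, with 1 of 8 at an unadjusted p under 0.05. That gene was Sall4, lower in the mandible by -1.20 ± 0.40 (limma adjusted p = 0.0786). Leaving out control proximal maxilla number 1 gave -1.48 (adjusted p = 0.0325), and leaving out number 2, one of the arrays of doubtful end label, gave -0.77 (adjusted p = 0.363), so the value depends on single arrays.

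The interactions asked whether the genotype difference itself differed between jaws or ends. For genotype by jaw, 0 of 8 genes were called against 0.0073% of all genes (limma, 2 of 8 at an unadjusted p under 0.05), with the largest value 0.59 ± 0.28 for Trim71. For genotype by end, 0 of 8 were called against 0.0146%. The 1 of 8 at an unadjusted limma p under 0.05 was Lin28a, which is not read. Without the 4 maxilla arrays, picked by their end difference, Sall4 gave -0.79 ± 0.34 by end (limma adjusted p = 0.668). Prtg gave -0.56 ± 0.19 (limma adjusted p = 0.438). These contrasts average over the other factor, so a difference confined to 1 jaw or 1 end is diluted in them. They say nothing about Lin28a, which passed the filter through mutant arrays alone and whose control side is at background. Its distal minus proximal difference in the mandible was -1.88, -1.51, -2.13 and -1.49 in mutant numbers 1 to 4 and 0.28, 0.01, -0.39 and -0.03 in control. All 4 mutant values lay below all 4 control values, a separation that was not counted over all genes. In the mutant maxilla the same difference was -0.42, 0.55, 0.32 and 0.94. The contrast of genotype by end within 1 jaw was not tested.

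The genes that make and turn over let-7 differed little between genotypes. The 19 listed include Drosha, Dicer1, the uridylyl transferases Tut4 and Tut7 that act with LIN28 and the exonuclease Dis3l2. On the mean of the regions 0 of the 19 were called, against 188 of all 13705 genes, so that count is not read as a result. Their median difference was 0.06. Tut4 differed by 0.18 ± 0.06 (limma adjusted p = 0.229) and Dicer1 by 0.21 ± 0.09 (adjusted p = 0.359). Ago4, an Argonaute gene, was lower in mutant distal mandible (-0.34 ± 0.09, limma adjusted p = 0.0454) and was higher at the distal than at the proximal end of the control mandible (0.42 ± 0.09, adjusted p = 0.00668). In each of these comparisons it was 1 of 19 called, against 262 of all 13705 genes in the first and 4.84% in the second. Of the let-7 host genes on the array, Huwe1, Mir99ahg and Lncppara differed by 0.10 ± 0.07, -0.15 ± 0.06 and -0.0049 ± 0.07 and none was called, and host transcript levels do not give the level of the mature microRNA.

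Among 35 other reported or predicted let-7 targets past the filter, 5 were higher in the mutants on the mean of the regions, against 0.503% of all genes. Of the rest 0 were lower and 30 did not pass, and the median over the 35 was 0.08. The list was chosen with earlier results of these data known, so its counts here and by region are not read as a result. The microtubule-severing gene Fign had the largest difference, 1.16 ± 0.13 (limma adjusted p = 0.00873), followed by the phosphatase gene Dusp9 at 0.58 ± 0.10 (adjusted p = 0.0381), and by Arid3a, E2f5 and the orphan receptor gene Nr6a1 at 0.27 to 0.31. Myc (-0.41 ± 0.14), Ccnd2 (0.07 ± 0.06) and Cdk6 (-0.09 ± 0.09), often named as let-7 targets, did not pass. By region, 5 were higher in distal mandible (Fign, Mycn, Dusp9, Cdc34 and Tgfbr1) against 0.482% of all genes, and 2 in proximal mandible (Fign and Arid3a) against 0.591%. Higher in distal maxilla were 2 (Nr6a1 and Tgfbr1) against 0.358%, and in proximal maxilla 0 against 0.0584%, and 0 were lower in any region. Tgfbr1 is the targeted gene itself. Its probes were not placed against the deleted exon, so its calls are not read. Fign went the other way from Sall4 between the ends of the control mandible, lower distally by -1.08 ± 0.25 (limma adjusted p = 0.00961).

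None of the listed pluripotency genes was called between genotypes on the mean of the regions, where 188 of all 13705 genes were. Of 25 on the array 14 passed the filter, with a median difference of -0.0052. Klf4 was below its control mean in all 4 regions, by a mean difference of -0.49 ± 0.18 (limma adjusted p = 0.24), as was L1td1, at -0.36 ± 0.08 (adjusted p = 0.0721). Both were chosen for mention after their values were seen. Pou5f1, Nanog, Zfp42 and Tdgf1, which mark pluripotent cells, lay below the 40th percentile on all 32 arrays, as did the germ cell genes Ddx4 and Dazl. Other genes of both lists lay above it on all 32. Among them were Sox2, Utf1, Esrrb, Dnmt3b and Tet1, and the germ cell genes Dnd1 and Prdm1. Among relatives of the members, Trim2 was lower in the mutants by -0.43 ± 0.08 (limma adjusted p = 0.0462) and the other 10, including Igdcc4 (-0.21 ± 0.08), which is also on the target list, Sall1 (0.52 ± 0.29) and the LIN28 relative Cnbp (0.01 ± 0.05), did not pass. Of 9 genes of the Igf2 axis and transcripts bound by IGF2BP proteins, 0 were called, with Igf2 at -0.04 ± 0.05 and a median of -0.18.

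**Figure D5:**
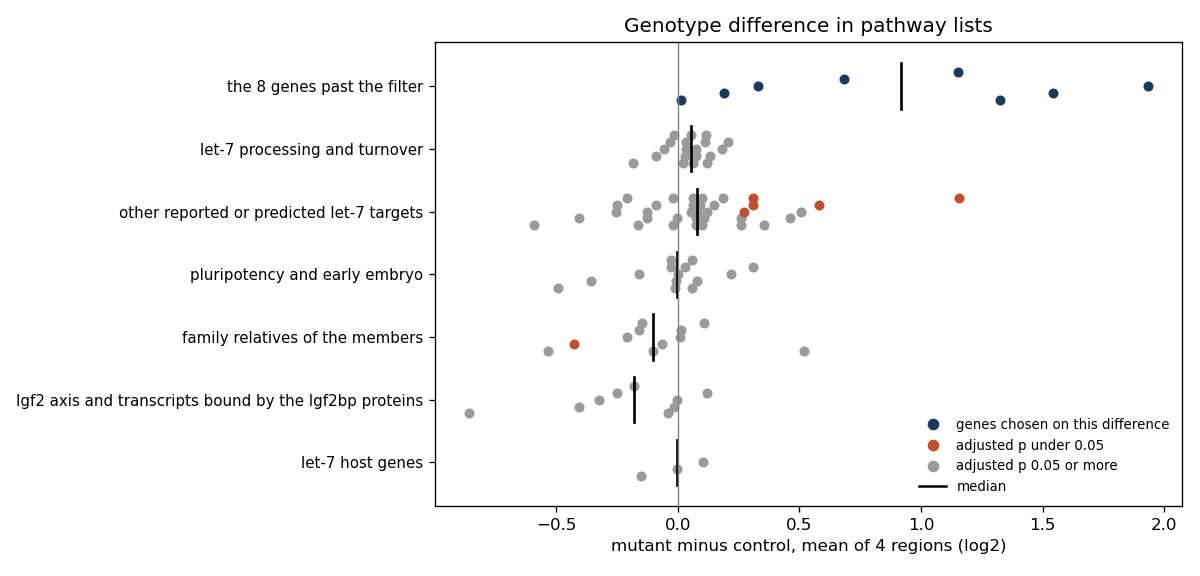
Mutant minus control difference on the mean of the 4 regions (log2, horizontal axis) for the 8 genes described and for each gene of 6 pathway lists, with the 8 genes in dark blue, list genes in orange for an adjusted p under 0.05 and grey otherwise, and a black bar at each median. The 8 genes were chosen on this difference (median 0.92), the let-7 processing genes have a median of 0.06 and the 5 called targets include Fign at 1.16.

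Over the 32 arrays, the 28 pairs of the 8 genes correlated at -0.09 to 0.86 with a median of 0.50, which includes the difference between genotypes that chose them. After the group means were taken out, the pairs correlated at a median of 0.43, with Hmga2 and Igdcc3 at 0.83. Without the array of low SD, mutant distal maxilla number 1, that median was 0.17, with Hmga2 and Igdcc3 at 0.66, Trim71 and Igf2bp3 at 0.78, Lin28a and Igdcc3 at 0.62 and Sall4 and Prtg at 0.52. These values describe arrays that share their normalization.

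The genes outside the list most like each member over the 32 arrays were Senp8 for Igdcc3 (r = 0.90), Pctp and Decr1 for Sall4 (0.90 and 0.90), Snapc3 for Trim71 (0.81) and Bnip3 for Prtg (0.80). They were Gtpbp3 for Hmga2 (0.84), Prmt5 for Igf2bp1 (0.82) and Zbtb16 for Igf2bp3 (0.83), and the third gene most like Igf2bp3 was Tut4 (0.80). These likenesses carry the genotype difference as well.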

How the data were processed

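Expression was measured on 1 array per sample, 32 in all, with no probe-level files used here. The authors deposited log2 values made by RMA (background correction, quantile normalization and probe set summary), per the submitters' processing notes, with no version given. Quantile normalization makes arrays alike in their overall distribution, RMA compresses low values. Precision is set by 4 arrays per group.

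Probe sets with 1 gene symbol were kept if above their array's 40th percentile on at least 4 arrays, and the one of highest mean stood for each gene. Jaw, end, interaction and regional genotype comparisons came from 1 limma fit over 8 groups (24 residual degrees of freedom), and the mean genotype effect from the mean of 4 regions per genotype and number (6 residual degrees of freedom), without a replicate block. P-values were adjusted by Benjamini-Hochberg over all 13705 genes at 0.05. R 4.3.3, limma 3.58.1 and Python 3.11.15 were used, and the fits were tested on simulated data.

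The members, the gene lists and the tests were chosen with earlier results of these data known. All members were named, with the 3 genes outside the list most correlated with each, and list genes were named where they passed or define the pathway. Same-numbered arrays deviated together for the mean genotype effect (r = 0.44, 0.20, 0.40 and 0.23 for numbers 1 to 4). In every other comparison checked at least 1 number gave r near 0 or below, and the interactions were not checked. The nearest were the ends of the control mandible (0.54, 0.42, 0.01 and 0.30) and genotype in distal mandible (0.39, 0.18, 0.01 and 0.27). With the replicate block the mean genotype effect called 4 of the 8 genes in place of 5, without Prtg, and 388 genes in all in place of 188. Alternatives were other filters, repeated quantile normalization, median centring, every probe set by itself, only the compared groups, the block, number 1 left out and each array left out in turn (for the mean genotype effect, the 4 arrays of 1 genotype and number). After the data were seen, leaving out 2 arrays that stood apart and 4 maxilla arrays was added.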

Additional observations from a re-analysis of the deposited data

Results flagged for a closer look

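In 3 of 72 groups of 4 arrays the highest or lowest array lay far from the other 3 by Dixon's criterion, which chance alone gives in about 1 group in 20. Igf2bp3 read 11.74 on mutant distal maxilla array number 1, against 12.19 to 12.27 on the other 3. Hmga2 read 12.15 on the same array, the one of low SD, against 13.05 to 13.18. Trim71 read 6.55 on control proximal maxilla array number 1, against 7.40 to 7.44.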

How the results depend on the processing

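Counts below are of the 8 genes called by limma. The genotype comparisons chose these genes, so their counts and kept calls describe the processing only and are not read as support. In proximal maxilla (2 in the report) the count was 1 with a 60th percentile filter, which removes Lin28a, with quantile normalization repeated, with every probe set by itself and without number 1, and 0 with only the compared groups or without the 4 maxilla arrays. In distal maxilla (2) it was 1 with the 60th percentile filter and 0 with only the compared groups. Between jaws at the proximal end of the controls (0) it was 1, Sall4, with the replicate block (adjusted p = 0.0439), without number 1 (0.0224) and without the 2 arrays that stood apart (0.0378), and same-numbered arrays did not all deviate together there. With the block the count was 4 in distal mandible (3), 3 in distal maxilla (2) and 3 in proximal maxilla (2), and 4 for the mean genotype effect (5). For that effect, leaving out the 4 arrays of 1 genotype and number in turn gave 3 to 5, and Igdcc3, Lin28a and Trim71 were called each time. Prtg kept its call in 2 and Sall4 in 3 of these 8 settings. With 1 array left out in turn the counts ran from 2 to 3 in distal mandible, 4 to 5 in proximal mandible, 2 to 3 in distal maxilla, 0 to 2 in proximal maxilla and 0 to 1 between jaws at the proximal end. They stayed at 2 between the ends of the control mandible and at 0 for the other 4 comparisons. No called direction reversed. The number of genes called over the whole array moved more widely. With the replicate block it went from 262 to 729 in distal mandible, 172 to 478 in proximal mandible, 108 to 315 in distal maxilla, 9 to 34 in proximal maxilla, 202 to 304 between jaws at the distal end and 1 to 5 for genotype by jaw. With only the compared groups it was 115 and 412 between jaws at the distal and proximal ends (740 in the report for the latter), 2 in distal maxilla and 0 in proximal maxilla. Without number 1 it was 939 for the mean genotype effect (188), 351 between jaws at the distal end, 32 in proximal maxilla, 19 for genotype by jaw and 0 for genotype by end (2). Without the 2 arrays that stood apart it was 366 in proximal mandible, 28 in proximal maxilla and 2 for genotype by jaw. Without the 4 maxilla arrays it was 184 between the ends of the control maxilla (0), 26 for genotype by end, 255 in distal maxilla and 1 in proximal maxilla. Those 4 arrays were picked by their end difference, so the counts for the ends are partly set by that choice. With every probe set by itself it was 110 for the mean genotype effect, 304 between jaws at the distal end, 6 for genotype by end and 1 between the ends of the control maxilla. Genotype by jaw called 2 genes with no filter, 0 with the 60th percentile filter and 3 with quantile normalization repeated, and the ends of the control maxilla 1 with no filter. Lin28a lies near background, so its differences are the least certain in size.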
